A study of Mus musculus with 50 samples.

Results

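The wound bed of 20 non-regenerative (NR) mouse digits was compared between an acute and a late phase after amputation. The acute phase pooled 9 digits, 3 each at 6, 12 and 24 hours, and the late phase pooled 11 digits, 5 at 7 days and 3 each at 14 and 21 days. They are 20 of the 29 NR digits and of the 50 samples in the series, and were chosen by labelled group and time alone. All came from male C57Bl/6 mice 9 to 10 weeks old, in which the distal phalanx (P3) of hindlimb digit 3 was cut and the skin was left to heal without sutures. By the study's methods the other hindlimb of each mouse carried a regenerative amputation of the same digit, which would give every mouse a wound on both sides and 1 NR digit. The methods also give 3 mice for each time point, whereas the labels hold 5 NR digits at 7 days. Whether any mouse gave more than 1 of these digits is therefore not known. The methods place NR digits above 67% removal of P3, but the labels of the 20 digits give levels from 60% to 80%, with 4 of 9 acute and 8 of 11 late digits above 67%. Each label holds a mark and a date, and the 20 combinations of these differ, but no label states which animal a digit came from, and the p-values measure the spread between digits. Polyadenylated RNA of each digit made 1 library, and the table holds 3206590 to 13011782 expected counts for each digit over 21954 genes.

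Skin wounds pass through overlapping steps. In the first hours, damaged and immune cells release cytokines and chemokines that draw neutrophils, and keratinocytes at the edge switch to the migratory keratins K6 and K16. Later, macrophages clear the tissue, and fibroblasts lay down a collagen-rich matrix that is remodelled over weeks. In the digit, osteoclasts also resorb part of the cut bone. The comparison asks which of these programmes separated the early from the late wound bed in digits that do not grow back.

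A pair of late digits stood apart. The median Spearman correlation of a digit with the others of its phase was 0.556 for 14 days replicate 2 and 0.737 for 7 days replicate 2, against 0.885 to 0.962 for the other 18 digits. In 14 days replicate 2, 9.41% of counts fell on ribosomal protein genes, and 7 days replicate 2 had counts for 10072 genes, fewer than any other of the 20 digits. The label dates, which are not said to date any given step, fall in July and August 2015 for 7 of 9 acute and 3 of 11 late digits and from November 2015 to the next January for the others. All 12-hour digits carry the earlier and all 21-day digits the later dates. The mark, date and side of 5 of the 20 labels, those of the 12-hour digits, 7 days replicate 1 and 14 days replicate 3, also occur on another digit of the series, in 1 case, that of 14 days replicate 3, on a digit of the same time point. Summed keratinocyte, nail keratin, bone and macrophage markers were above 0 in every digit, whereas 13 of 16 skeletal muscle markers were too low to test. In bulk tissue, fewer cells of a type and less RNA per cell cannot be told apart.

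Genes of the extracellular matrix rose in the late digits, together with some genes of osteoclasts and macrophages, and genes of cytokines, chemokines and wound edge keratinocytes fell. Of 13060 genes tested, 783 were higher and 367 lower in the late phase (edgeR quasi-likelihood test, Benjamini-Hochberg adjusted p below 0.05 and a change of over 2-fold between the phase means, with 1 normalized count added to each). These are 6% and 2.81% of the genes tested, and the counts of each gene list are read against them. The median absolute log2 fold change was 1.75 among the higher and 1.66 among the lower genes, and 75 higher and 43 lower genes changed more than 8-fold. The median over all tested genes was 0.15. In 81 genes (0.62%) every late digit lay above every acute digit, and in 180 genes (1.38%) every late digit lay below every acute digit, and 75 and 117 of these were called. Without 7 days replicate 2 and 14 days replicate 2, 973 of 12959 genes were higher (7.51%) and 557 lower (4.3%). With the date period as a term in the fit, 422 of 13060 genes were higher (3.23%) and 201 lower (1.54%), and all 1150 genes called without the term kept their direction. Among the digits of the earlier dates alone, 7 acute and 3 late, 892 genes were higher and 701 lower, and among those of the later dates alone, 2 acute and 8 late, 0 were higher and 1 lower by edgeR, with 357 at an unadjusted p below 0.05. In these subsets 1123 of 1134 and 1143 of 1150 called genes kept their direction. The genes were called from the same digits, so kept directions, here and with the date term, are partly fixed by the choice of genes. No share over all tested genes was computed for kept directions, and they are no separate test of the date period. Members of gene lists that are named as the extreme or the exception of their list were in part chosen after their values were seen.

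Collagens had the largest share of higher genes among the 28 lists. Of 20 collagen genes tested, 18 rose and none fell, with a median log2 fold change of 3.17 beside 0.15 for all tested genes. The 2 that were not called were Col18a1, a basement membrane collagen with the lowest value of the list (log2 fold change 0.27 ± 0.30, edgeR adjusted p = 0.609), and Col4a1, of basement membranes too (log2 fold change 1.02 ± 0.36, edgeR adjusted p = 0.0668). Col4a2, of the same collagen type as Col4a1, was called higher (log2 fold change 1.26), though not with the date period as a term. The summed normalized count of the list was between 13470 and 50980 in the acute digits, with a median of 22260, and between 64870 and 556500 in the late digits, with a median of 250500. All 11 late digits exceeded all 9 acute digits, and the highest acute digit was 6 hours replicate 1. At 0 hours the sum was between 33990 and 50230 in 3 digits. Without the pair of digits that stood apart 19 collagens rose, Col4a1 among them (edgeR adjusted p = 0.0055), and with the date period as a term 17 did.

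Col1a1 encodes the alpha 1 chain of type I collagen, the main fibre protein of bone, tendon and scar (GRCm38, chr11:94936224-94953042, plus strand). Its normalized count was between 933 and 7823 in acute digits, with a median of 2774, and between 23227 and 175620 in late digits, with a median of 49189. Every late digit was above every acute digit, and the highest acute value came from 6 hours replicate 1. The log2 fold change was 4.62 ± 0.49 (SE, n = 9 and 11 digits; edgeR adjusted p = 2.17e-06). The gene of its partner chain, Col1a2, rose too (log2 fold change 3.90 ± 0.52, edgeR adjusted p = 2.99e-05), with overlap between the phases. Col3a1, type III collagen of early scar and vessels, was between 3088 and 11180 in acute and between 16090 and 140600 in late digits and did not overlap (log2 fold change 3.68 ± 0.40, edgeR adjusted p = 2.23e-06). Col12a1, a collagen on the surface of fibrils, went from a median of 254 to a median of 2867 without overlap (log2 fold change 3.75 ± 0.36, edgeR adjusted p = 7.85e-07).

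Proteins that bind or space these fibres followed the same course. Of 26 matricellular and elastic fibre genes tested, 21 rose and 1 fell, with a median log2 fold change of 2.43. Postn encodes periostin, which links collagen to cells (chr3:54361109-54391037, plus strand), and its normalized count was between 459.5 and 1235 in acute digits, with a median of 819.7, and between 1939.7 and 33153 in late digits, with a median of 9884. The phases did not overlap, and the lowest late value was that of 14 days replicate 2 (log2 fold change 4.01 ± 0.46, edgeR adjusted p = 5.39e-06). Aspn, a small proteoglycan that binds collagen, was between 67.6 and 808 in acute and between 1336 and 12605 in late digits (log2 fold change 4.13 ± 0.52, edgeR adjusted p = 1.57e-05). Sparc, which binds collagen and mineral in bone, went from a median of 3304 to a median of 16656 without overlap (log2 fold change 2.64 ± 0.36, edgeR adjusted p = 3.83e-05), and Fn1, fibronectin, went from a median of 2414 to a median of 4977 with overlap (log2 fold change 1.55 ± 0.37, edgeR adjusted p = 0.00718). Fbn2, a fibrillin of developing elastic fibres, had the largest rise of the list, from a median of 3.71 to a median of 169.6 (log2 fold change 5.17 ± 0.65, edgeR adjusted p = 1.57e-05). Thbs1, thrombospondin 1, which platelets release early in a wound, fell from a mean of 5429.6 to a mean of 2219 (log2 fold change -1.29 ± 0.41, edgeR adjusted p = 0.0398). With the date period as a term 20 members rose and none fell.

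Of the enzymes and chaperones that fold, trim and cross-link collagen, 15 of 22 rose and none fell, with a median log2 fold change of 1.87, and 15 rose with the date period as a term. Loxl1, a lysyl oxidase that cross-links elastin and collagen, had the largest rise of the list, from a mean of 77.5 to a mean of 601 without overlap (log2 fold change 2.95 ± 0.53, edgeR adjusted p = 0.000711). Serpinh1, the collagen chaperone HSP47, was between 217 and 614 in acute and between 334 and 7129.6 in late digits with overlap (log2 fold change 2.23 ± 0.44, edgeR adjusted p = 0.00187). Bmp1, which despite its name is the protease that trims procollagen, went from a median of 445 to a median of 1199.6 (log2 fold change 1.61 ± 0.35, edgeR adjusted p = 0.00355). P4hb, a prolyl hydroxylase subunit that also folds other secreted proteins, had medians of 6013 and 5651 and was not called (log2 fold change 0.06 ± 0.24, edgeR adjusted p = 0.891). Outside the list, Rcn3, a calcium-binding protein of the endoplasmic reticulum, was between 41.1 and 190.1 in acute and between 258 and 5899.7 in late digits without overlap (log2 fold change 3.71 ± 0.53, edgeR adjusted p = 6.73e-05). The highest value was that of 14 days replicate 2, and without the pair of digits that stood apart the log2 fold change was 3.05.

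The largest rise of all tested genes was that of C1qtnf3, a secreted protein of the C1q and TNF family known from cartilage (chr15:10952332-10980150, plus strand). Its normalized count was between 0 and 19.7 in acute digits, with a median of 8.38, and between 111 and 1479 in late digits, with a median of 285 (log2 fold change 6.23 ± 0.73, edgeR adjusted p = 7.02e-06). Cthrc1, a secreted protein of activated fibroblasts in repairing tissue (chr15:39076932-39087121, plus strand), was between 5.55 and 53.6 in acute digits, with a median of 16.7, and between 630.1 and 2680.2 in late digits, with a median of 1321. The groups did not overlap for either gene. The log2 fold change of Cthrc1 was 5.89 ± 0.43, and it shared the smallest adjusted p of the higher genes with Tgfb3 (edgeR adjusted p = 4.56e-09). At 0 hours Cthrc1 was at 32.9 ± 11.3 (SD, n = 3), within the acute range. Tmem119, a membrane protein of osteoblasts and microglia, went from a median of 10.3 to a median of 149 (log2 fold change 4.85 ± 0.81, edgeR adjusted p = 0.000405), and Megf6, a protein with EGF-like repeats, went from a median of 32.5 to a median of 537 (log2 fold change 4.47 ± 0.57, edgeR adjusted p = 1.9e-05), both without overlap. Both were highest in 14 days replicate 2, and without the pair of digits that stood apart the log2 fold changes were 4.01 and 3.85.

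**Figure D1:**
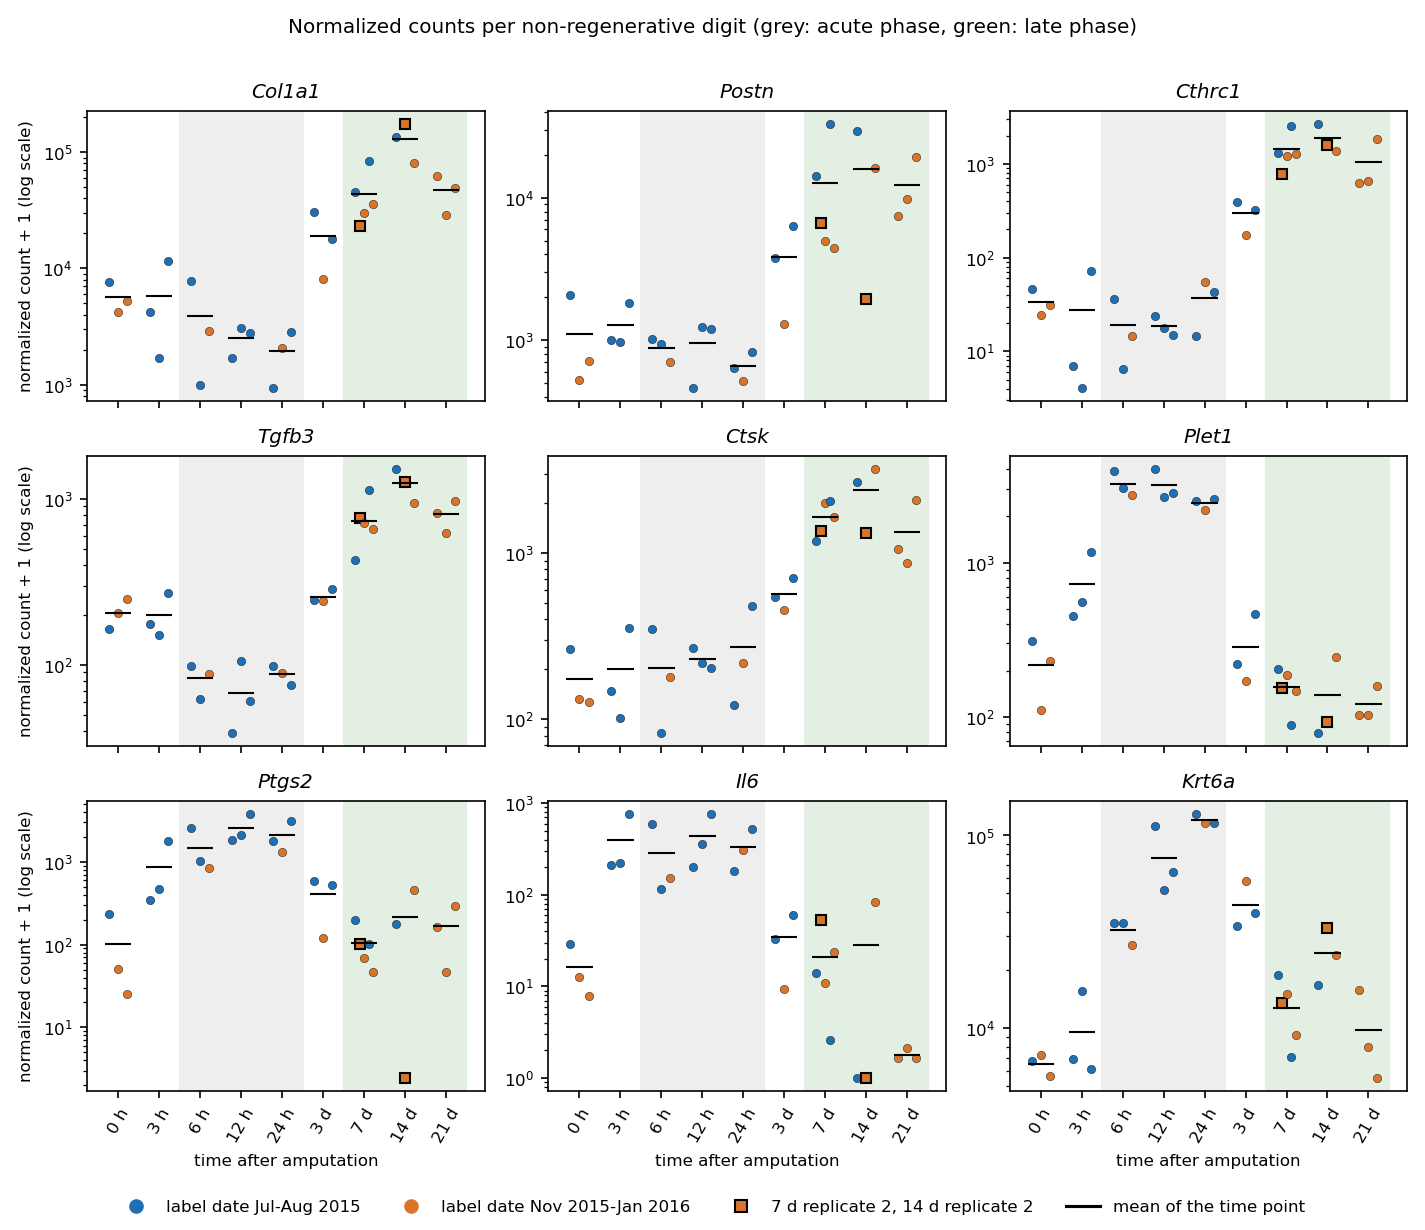
Each point is the normalized count plus 1 of 1 NR digit (vertical log axis) at each time after amputation (horizontal axis, time points in order) for 9 genes, with bars at time point means, colours for the label date period, squares for 7 days replicate 2 and 14 days replicate 2, and grey and green bands for the acute and late phases. Late values of Col1a1, Postn, Cthrc1, Tgfb3 and Ctsk lie above all acute values, those of Plet1, Ptgs2 and Il6 lie below them, and those of Krt6a overlap.

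Promoters of Postn, Aspn, Sprr1a and Ifi202b are shown because each of these genes separated all 20 digits. They are the genes with the highest mean normalized count, of those with a RefSeq start on GRCm38.p6 at hand, among the 10 largest rises and 10 largest falls without overlap. Each run holds 250 bases before and 50 after an annotated start, 5' to 3' on the gene's strand, and Postn has 2 starts. Capitals mark matches to the TATA motif TATAAA and the AP-1 motif TGACTCA, a site of Fos and Jun proteins, read on both strands.
Postn start 1, chr3:54359017-54359316, plus strand: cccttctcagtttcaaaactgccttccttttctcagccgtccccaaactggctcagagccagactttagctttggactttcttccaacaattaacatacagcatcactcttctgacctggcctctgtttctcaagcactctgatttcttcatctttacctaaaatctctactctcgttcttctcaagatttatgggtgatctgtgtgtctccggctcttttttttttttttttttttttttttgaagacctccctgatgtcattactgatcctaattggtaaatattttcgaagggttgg
Postn start 2, chr3:54360857-54361156, plus strand: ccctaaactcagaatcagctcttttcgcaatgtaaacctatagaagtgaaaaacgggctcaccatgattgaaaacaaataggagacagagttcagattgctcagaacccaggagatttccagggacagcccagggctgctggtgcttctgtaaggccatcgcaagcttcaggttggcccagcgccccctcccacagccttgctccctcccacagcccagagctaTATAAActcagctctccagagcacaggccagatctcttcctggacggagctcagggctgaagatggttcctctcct
Aspn, chr13:49544193-49544492, plus strand: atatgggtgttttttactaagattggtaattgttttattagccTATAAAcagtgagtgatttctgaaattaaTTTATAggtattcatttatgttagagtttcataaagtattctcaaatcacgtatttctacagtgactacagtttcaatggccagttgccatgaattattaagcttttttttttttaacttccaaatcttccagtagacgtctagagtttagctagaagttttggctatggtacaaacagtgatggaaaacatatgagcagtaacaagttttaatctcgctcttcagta
Sprr1a, chr3:92485832-92486131, minus strand: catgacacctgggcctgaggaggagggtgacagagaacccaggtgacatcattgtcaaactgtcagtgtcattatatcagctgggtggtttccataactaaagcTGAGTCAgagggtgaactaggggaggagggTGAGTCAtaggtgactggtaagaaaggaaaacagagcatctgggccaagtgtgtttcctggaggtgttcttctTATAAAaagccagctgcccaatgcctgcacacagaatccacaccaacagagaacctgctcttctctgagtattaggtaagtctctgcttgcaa
Ifi202b, chr1:173982795-173983094, minus strand: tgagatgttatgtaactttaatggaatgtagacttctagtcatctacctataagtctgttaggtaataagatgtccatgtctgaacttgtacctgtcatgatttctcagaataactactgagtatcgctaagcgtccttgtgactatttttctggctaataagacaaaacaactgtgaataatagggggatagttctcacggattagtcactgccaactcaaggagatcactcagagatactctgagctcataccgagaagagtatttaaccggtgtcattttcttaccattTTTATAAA

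Among these 5 runs the AP-1 motif was found in Sprr1a alone, at 146 and 116 bases before the start on the reverse strand, and 5.2% of 32851 promoters of the same length hold it. TATAAA stood 26 bases before the second start of Postn and 43 bases before that of Sprr1a. In Aspn it lay 207 bases before the start and, on the reverse strand, 178 bases before it. In Ifi202b an overlapping pair of matches lay 43 and 45 bases into the transcript as counted from the RefSeq start. The GENCODE gene on the minus strand starts only at 173982744, so the whole run lies before that start. TATAAA is found in 13.6% of promoters. The CRE motif TGACGTCA, in 1.79% of promoters, and the NF-kB consensus, in 4.51%, had no match. The E-box motif CANNTG, in 72.3% of promoters and not in capitals here, was found 6 times in Sprr1a, 2 times in Aspn, 1 time in Ifi202b and not in Postn. A match of letters is a description and not a binding site.

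Macrophage markers rose in part. Of 20 macrophage and monocyte genes tested, 7 rose and 1 fell, with a median log2 fold change of 1.10, and with the date period as a term 7 rose and none fell, with Csf1r and Adgre1 in place of C1qb and C1qc. Those that rose were C1qa, C1qb and C1qc, which encode the chains of complement C1q, the lysozyme gene Lyz2, the lysosomal gene Gpnmb, the lipid receptor gene Trem2 and Ms4a7. Lyz2 was between 194 and 1004 in acute and between 457 and 5481 in late digits with overlap (log2 fold change 1.68 ± 0.45, edgeR adjusted p = 0.0151), and Trem2 had the largest rise (log2 fold change 3.60 ± 0.90, edgeR adjusted p = 0.01). The log2 fold change of Trem2 was 2.67 without the pair of digits that stood apart, and Csf1r and Adgre1 were called too. Cd14, a receptor for bacterial lipopolysaccharide, fell from a mean of 552 to a mean of 83.01 (log2 fold change -2.73 ± 0.62, edgeR adjusted p = 0.00551). The general macrophage genes Csf1r (log2 fold change 1.18 ± 0.40, edgeR adjusted p = 0.0545), Cd68 (log2 fold change 0.73 ± 0.41, edgeR adjusted p = 0.268) and Adgre1 (log2 fold change 1.69 ± 0.66, edgeR adjusted p = 0.1) were not called over the 20 digits. The summed markers exceeded every acute digit in 5 of 11 late digits.

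Genes of bone resorption were also higher. Ctsk encodes cathepsin K, the protease with which osteoclasts digest bone collagen, and is made by some fibroblasts too. Its normalized count was between 81.9 and 479 in acute digits, with a median of 218, and between 866 and 3205 in late digits, with a median of 1646, and the phases did not overlap (log2 fold change 2.91 ± 0.31, edgeR adjusted p = 2.31e-06). The osteoclast proton pump gene Atp6v0d2 (log2 fold change 3.10 ± 0.76, edgeR adjusted p = 0.00863), the phosphatase gene Acp5 (log2 fold change 1.69 ± 0.55, edgeR adjusted p = 0.0443) and Tnfrsf11a, the gene of the RANK receptor (log2 fold change 1.30 ± 0.42, edgeR adjusted p = 0.0467), also rose, with overlap. In all, 4 of 10 tested osteoclast genes rose and none fell, with a median log2 fold change of 0.92. Of 14 osteoblast and osteocyte genes 3 rose, with a median of 0.84, namely Ibsp, a matrix protein of mineralizing bone (log2 fold change 2.22 ± 0.73, edgeR adjusted p = 0.0485), Pth1r, the parathyroid hormone receptor (log2 fold change 2.78 ± 0.74, edgeR adjusted p = 0.0152), and the collagen gene Col24a1 (log2 fold change 3.89 ± 0.53, edgeR adjusted p = 3.68e-05). With the date period as a term 2 osteoclast and 2 osteoblast genes rose, and Acp5, Tnfrsf11a, Ibsp and Pth1r did not pass. Without the pair of digits that stood apart 6 osteoblast genes rose.

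Of 12 cartilage genes tested, with a median log2 fold change of 0.32, the proteoglycan gene Acan and the matrix gene Comp rose, though neither passed with the date period as a term. Col10a1, the collagen of hypertrophic cartilage, fell from a median of 333 to a median of 26.6 (log2 fold change -3.47 ± 0.76, edgeR adjusted p = 0.00408).

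Genes of the BMP and TGF-beta family, which steer bone formation and fibrosis, moved in both directions. Of 22 ligands and antagonists tested, 9 rose and 2 fell, with a median log2 fold change of 0.69, and with the date period as a term 6 rose and 1 fell. Among ligands, Tgfb3 (chr12:86056745-86079041, minus strand) was between 37.8 and 104 in acute digits, with a median of 87.4, and between 427 and 1518 in late digits, with a median of 824. The phases did not overlap (log2 fold change 3.50 ± 0.25, edgeR adjusted p = 4.56e-09), and the 0-hour level of 205 ± 42.00 (SD, n = 3) was above all acute and below all late digits. The ligand genes Tgfb2, Bmp5 and Gdf10 rose with it, as did the BMP antagonist genes Chrd and Chrdl1 and the latent TGF-beta binding protein genes Ltbp2 and Ltbp3, of which Ltbp3 was under the fold threshold without the pair of digits that stood apart. Fstl1, a secreted glycoprotein related to follistatin, went from a median of 2090.5 to a median of 7115 without overlap (log2 fold change 2.08 ± 0.29, edgeR adjusted p = 5.75e-05). Inhba, an activin subunit gene (log2 fold change -1.32 ± 0.33, edgeR adjusted p = 0.0113), and Fst, the activin inhibitor follistatin (log2 fold change -1.66 ± 0.27, edgeR adjusted p = 0.000261), fell.

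Bmp2, a bone morphogenetic protein needed for fracture repair, was between 119 and 345 in acute digits, with a median of 166, and between 0 and 136 in late digits, with a median of 82.5. It did not pass (log2 fold change -1.19 ± 0.45, edgeR adjusted p = 0.0854). Without the pair of digits that stood apart its log2 fold change was -1.002 and it did (edgeR adjusted p = 0.00955).

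Of 20 Wnt ligands and secreted regulators tested, 5 rose and none fell, with a median log2 fold change of 0.81. Dkk3, of the Dickkopf family, was between 87.7 and 311 in acute and between 803 and 2731 in late digits without overlap (log2 fold change 2.77 ± 0.28, edgeR adjusted p = 1.39e-06). Wisp1, a matricellular protein induced by Wnt signals, went from a median of 27.6 to a median of 115 (log2 fold change 2.83 ± 0.54, edgeR adjusted p = 0.00134), from 4.01 ± 3.48 (SD, n = 3) at 0 hours. The others were Wnt5b, Dkk2 and Sfrp2, and with the date period as a term Wnt5b did not pass. All 19 limb patterning transcription factors tested had log2 fold changes above 0, with a median of 1.52, and Prrx2, Pitx1, Lhx9 and Twist1 passed. The summed normalized count of this list had medians of 1380 in acute and 2589 in late digits. At 0 hours it was between 2295 and 2926. With the date period as a term Twist1 alone was called, and without the pair of digits that stood apart 10 of 18 were, Prrx1 among them. Pitx1, at 169.6 in 14 days replicate 2 and at no more than 46.4 in the other late digits, was then too low to test, and the log2 fold change of Prrx2 went from 2.53 to 1.73. Prrx1, a marker of limb mesenchyme, had medians of 380.2 and 653 and was under the fold threshold (log2 fold change 0.91 ± 0.28, edgeR adjusted p = 0.0323).

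Cytokines and chemokines moved the opposite way to the matrix. Of 21 tested, 17 fell and none rose, with a median log2 fold change of -3.10, and all 21 values were below 0. Their summed normalized count was between 5587 and 21650 in the acute digits, with a median of 11520, and between 274 and 6685 in the late digits, with a median of 1225. Below every acute digit lay 10 of the 11 late digits, and the exception was 14 days replicate 3. The sum at 0 hours was between 608 and 1224, within the late range. With the date period as a term 6 members fell, and without the pair of digits that stood apart 17 did.

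Il6 encodes interleukin 6, an early alarm cytokine (chr5:30013114-30019981, plus strand), and was between 115 and 768 in acute digits, with a median of 305, and between 0 and 81.5 in late digits, with a median of 1.59 (log2 fold change -4.40 ± 0.81, edgeR adjusted p = 0.00101). Ptgs2, the inducible cyclooxygenase that makes prostaglandins, was between 835 and 3823 in acute and between 1.44 and 459 in late digits (log2 fold change -3.77 ± 0.53, edgeR adjusted p = 5.75e-05). In both genes all late digits lay under all acute ones. The neutrophil chemokine gene Cxcl1 was between 1709.7 and 5585 in acute and between 15.7 and 1598 in late digits (log2 fold change -3.33 ± 0.78, edgeR adjusted p = 0.00613), and its highest late value was that of 7 days replicate 2. Its log2 fold change was -4.09 without the pair of digits that stood apart. Il1b, interleukin 1 beta, went from a median of 1599.8 to a median of 41.4 with overlap (log2 fold change -3.91 ± 0.85, edgeR adjusted p = 0.00374), and was not called with the date period as a term (log2 fold change -3.93, edgeR adjusted p = 0.118). Il24, a cytokine that keratinocytes release after wounding, had the largest fall of all 13060 genes, from a mean of 207 to a mean of 1.81 without overlap (log2 fold change -6.43 ± 0.81, edgeR adjusted p = 1.57e-05).

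Of 24 neutrophil markers 13 could be tested, and 6 fell and none rose, with a median log2 fold change of -1.80. Among them were Csf3r, Cxcr2, Il1r2, Hdc and Itgal. Hdc, histidine decarboxylase, fell from a mean of 627 to a mean of 40.9 (log2 fold change -3.89 ± 0.81, edgeR adjusted p = 0.00265). With the date period as a term 0 of the 13 passed by the same edgeR test, and without the pair of digits that stood apart 9 fell. S100a9, a calcium-binding protein abundant in neutrophils, was between 207 and 1688 in acute digits, with a median of 1023, and between 1.28 and 3576 in late digits, with a median of 175 and was not called (log2 fold change -0.39 ± 0.88, edgeR adjusted p = 0.814). The summed markers were between 7263 and 13700 in the acute digits, with a median of 9349, and between 2566 and 53890 in the late digits, with a median of 6918, and the highest late digit was 14 days replicate 2. There Asprv1, which keratinocytes also make, held 53257 normalized counts, and without the pair of digits the highest late sum was 12570. Asprv1 was a large part of the sum in many other digits too, with medians of 5593 in acute and 5941 in late digits. The summed markers therefore do not stand for neutrophils alone. Elane, which neutrophil precursors in the bone marrow transcribe, was at 0 in all 20 digits, and Mpo, Ly6g and Mmp8 were too low to test. The part of neutrophils in the fall of the cytokine genes was not tested.

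Genes of keratinocytes that migrate at the wound edge fell. Of 25 tested, 18 fell and none rose, with a median log2 fold change of -1.78, and 13 fell with the date period as a term. Krt6a was between 26839 and 129680 in acute digits, with a median of 64596, and between 5499 and 33260 in late digits, with a median of 15045. The phases overlapped, and the 0-hour level was 6519 ± 815 (SD, n = 3). The log2 fold change was -2.33 ± 0.37 (edgeR adjusted p = 0.000205), and its partner Krt16 fell as well (log2 fold change -1.94 ± 0.49, edgeR adjusted p = 0.0113). Krt6a and Krt6b, and likewise Krt16 and Krt17, are close copies, so the split of reads within each pair is uncertain. Others that fell were the growth factor genes Areg, Epgn, Hbegf and Tgfa, the laminin chain genes Lama3 and Lamb3, and the protease genes Plau, Mmp3 and Mmp10. Areg, amphiregulin, had the largest fall of the list, from a mean of 417 to a mean of 46.8 without overlap (log2 fold change -3.15 ± 0.67, edgeR adjusted p = 0.00317).

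Of 16 basal and spinous keratinocyte genes 4 fell, namely the adhesion genes Col17a1, Itga6, Itgb4 and Dsg3, with a list median of -0.27. Itgb4 did not pass with the date period as a term, and Col17a1 was under the fold threshold without the pair of digits that stood apart. Itga6, an integrin subunit of hemidesmosomes, was between 4772 and 10105 in acute and between 251 and 3142 in late digits without overlap (log2 fold change -1.74 ± 0.28, edgeR adjusted p = 0.000208). The main keratins of resting skin were not called, with Krt14 at medians of 63817 and 36067 (log2 fold change -0.23 ± 0.45, edgeR adjusted p = 0.776) and Krt10 at 101610 and 135580 (log2 fold change 0.20 ± 0.26, edgeR adjusted p = 0.664). The highest late value of Krt14 was 319740, in 14 days replicate 2, beside at most 78278 in the other late digits. Without the pair of digits that stood apart its log2 fold change was -0.88, past the adjusted threshold but under the fold threshold (edgeR adjusted p = 0.0159). The summed list was between 344200 and 665400 in the acute digits, with a median of 451800, and between 320000 and 757700 in the late digits, with a median of 494600, a broad overlap. Of 21 cornified envelope genes 6 fell, with a median of -0.71, in the Sprr1, Sprr2 and Lce3 families of close copies, and with the date period as a term 4 fell. Sprr1a, a small proline-rich protein of injured epidermis, was between 2350.4 and 6347 in acute and between 1.54 and 1169.5 in late digits without overlap (log2 fold change -3.31 ± 0.55, edgeR adjusted p = 0.000335), while Flg, filaggrin, went from a median of 24100 to a median of 51451 and was not called (log2 fold change 0.74 ± 0.33, edgeR adjusted p = 0.15).

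The smallest adjusted p of all tested genes was that of Plet1, a surface protein of trophoblast and of hair follicle and wound epithelium (chr9:50494525-50505482, plus strand). It was between 2192 and 4032 in acute digits, with a median of 2731, and between 78.2 and 244 in late digits, with a median of 147 (log2 fold change -4.37 ± 0.24, edgeR adjusted p = 2.89e-11). No late digit came near the lowest acute digit, and the 0-hour level was 216 ± 100.4 (SD, n = 3). Ifi202b, an interferon-inducible gene of the p200 family with close copies, was between 2462 and 4275 in acute and between 45.98 and 786 in late digits (log2 fold change -3.41 ± 0.31, edgeR adjusted p = 3.73e-07). The mapping kept reads with many matches, so the split of reads between Ifi202b and its copies is uncertain. Odc1, ornithine decarboxylase, the first enzyme of polyamine synthesis, went from a median of 3461 to a median of 849.9 (log2 fold change -1.94 ± 0.19, edgeR adjusted p = 8.74e-07), and neither gene overlapped between the phases.

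Fosl1, a partner of Jun in AP-1, was between 179 and 1188 in acute and between 0 and 89.6 in late digits without overlap (log2 fold change -3.91 ± 0.47, edgeR adjusted p = 8.79e-06). Its exons share 1163 bases with Ccdc85b on the other strand, and the sources used here do not say that counting used strand. Of the 21 immediate early factors tested, Nr4a3 also fell and Jund rose, and neither passed with the date period as a term. The median of the list was -0.50. Other falls without overlap were those of Sh2d5, an adaptor protein gene (log2 fold change -3.95 ± 0.52, edgeR adjusted p = 3.15e-05), Slpi, a protease inhibitor of skin and mucosa (log2 fold change -3.50 ± 0.59, edgeR adjusted p = 0.000401), and Has3, a hyaluronan synthase gene (log2 fold change -3.25 ± 0.52, edgeR adjusted p = 0.000228), whose exons overlap those of Chtf8 on the other strand.

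**Figure D2:**
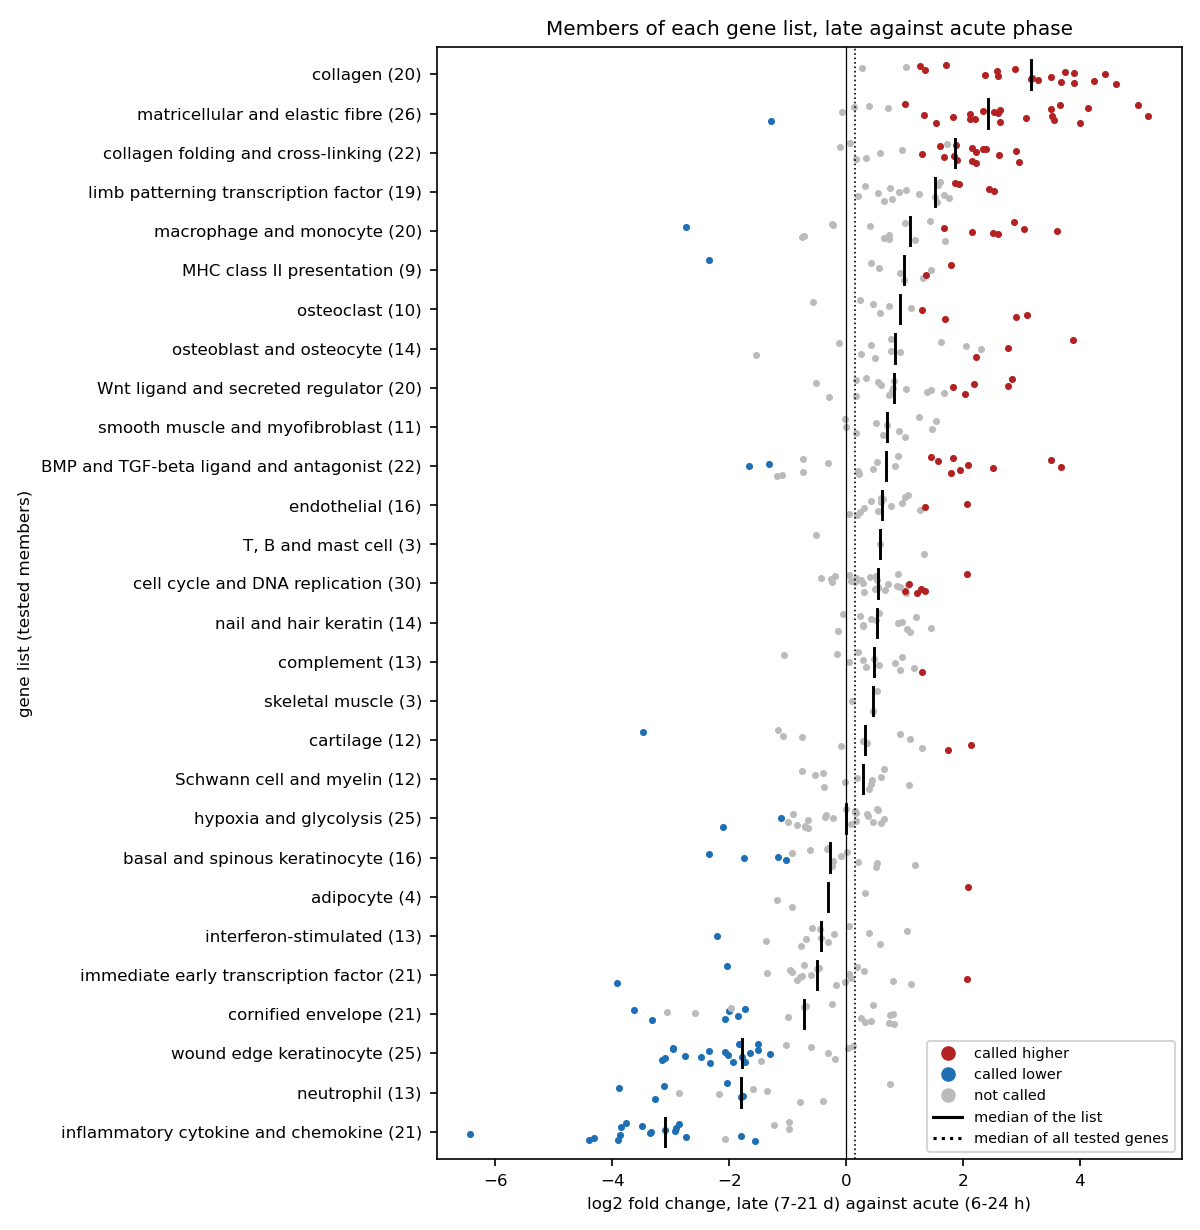
Each point is the log2 fold change of late against acute phase (horizontal axis) of 1 tested member of a gene list (vertical axis, 28 lists), red where called higher and blue where called lower, with black bars at list medians and a dotted line at the median of all tested genes, 0.15. The 3 matrix lists lie to the right, with medians of 3.17, 2.43 and 1.87, and the cytokine list lies to the left, with a median of -3.10.

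Other lists held few calls. By edgeR none was called of 11 smooth muscle and myofibroblast, 12 Schwann cell, 14 nail and hair keratin, 3 skeletal muscle and 3 T, B and mast cell genes tested, with medians of 0.70, 0.29, 0.54, 0.46 and 0.58. Acta2, the actin of myofibroblasts, was between 179.9 and 1087 in acute and between 455 and 3375 in late digits and missed the threshold (log2 fold change 1.007 ± 0.35, edgeR adjusted p = 0.0591). Of 30 cell cycle genes 6 rose, with a median of 0.54, among them the proliferation marker Mki67 (log2 fold change 1.22 ± 0.39, edgeR adjusted p = 0.0431), and 3 rose with the date period as a term. The summed normalized count of the cell cycle list had medians of 5942 in acute and 8652 in late digits. At 0 hours it was between 9435 and 11840. Of 25 hypoxia and glycolysis genes, with a median of 0.00, Hk2 and Slc2a3 fell. Hk2, hexokinase 2, was between 1379 and 2124 in acute and between 547 and 1338 in late digits without overlap (log2 fold change -1.12 ± 0.19, edgeR adjusted p = 0.000391). Slc2a3, the glucose transporter GLUT3, fell in the 20 digits (log2 fold change -2.11 ± 0.42, edgeR adjusted p = 0.00175), but its log2 fold change among digits of the later dates alone was 0.019. Of 16 endothelial genes Vwf and Cldn5 rose, of 4 adipocyte genes Lpl, and of 13 complement genes C1ra, with list medians of 0.62, -0.30 and 0.48. Of 9 MHC class II genes Ctss and H2-Eb1 rose and Cd80 fell, and of 13 interferon-stimulated genes Rsad2 fell, with medians of 0.998 and -0.43. Of the genes in these sentences Vwf, Cldn5, H2-Eb1, Cd80, Rsad2, Slc2a3 and Mki67 did not pass with the date period as a term, and Vwf and H2-Eb1 were under the fold threshold without the pair of digits that stood apart.

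Within each phase few genes were called between the first and the last time point. In a fit with 1 mean per time point, 1 of 14368 genes (0.00696%) was called at 21 against 7 days and 1 of 14368 (0.00696%) at 24 against 6 hours. The first was BC100530, a stefin-like protease inhibitor gene, with 1947, 609.9, 1079, 878 and 1695 normalized counts at 7 days and 60.4, 167 and 71.8 at 21 days, a fall without overlap. The second was Krt15, a keratin of basal and hair follicle stem cells, with 1059.8, 2224 and 1989 normalized counts at 6 hours and 81.3, 82.9 and 73.3 at 24 hours, again without overlap. Without the pair of digits that stood apart 9 and 42 genes were called, and in fits of the digits of the 2 time points alone 0 and 91 were.

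Time points outside the comparison place the phases. Of the 783 higher genes, the 0-hour mean was closer to the late than to the acute mean in 444 (56.7%), and of the 367 lower genes in 336 (91.6%), beside 60.4% of all tested genes. At 0 hours, 362 of the lower genes and 54 of the higher genes were below their acute mean. Most lower genes were thus above their level at amputation in the acute digits and nearer to it in the late digits. At 3 days, 764 of the higher genes (97.6%) were above their acute mean, and 6 of the lower genes (1.63%) were. Closer to the late than to the acute mean at 3 days were 477 higher (60.9%) and 251 lower genes (68.4%), beside 52.2% of all tested genes. The 0-hour and 3-day digits were scaled to the 20 and took no part in the calls, but the acute and late means did. Shares set against those means are therefore partly fixed by the choice of genes. For genes above or below the acute mean, no share over all tested genes was computed.

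Among the late time points, the highest mean of the 783 higher genes fell at 14 days in 500 genes (63.9%) and, without the pair of digits that stood apart, in 404 genes (51.6%). Among the acute time points, the highest mean of the 367 lower genes fell at 12 hours in 188 genes (51.2%). No share over all tested genes was computed for these counts, and the genes were chosen from the same digits. The 14-day mean also rests on fewer digits than that of day 7. The median log2 ratio of the collagen list to 0 hours was -1.32 at 24 hours and then 0.56 on day 3, 1.68 on day 7, 2.94 on day 14 and 2.23 on day 21. That of the cytokine list was 3.85, 5.13 and 4.54 in the acute phase, in order of time, and 1.03, 2.81 and 0.25 in the late phase. The collagens thus passed their starting level between 24 hours and 3 days, and the cytokine list was highest at 12 hours. Without 14 days replicate 2 the 14-day median of the cytokine list was 3.33, over 2 digits.

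**Figure D3:**
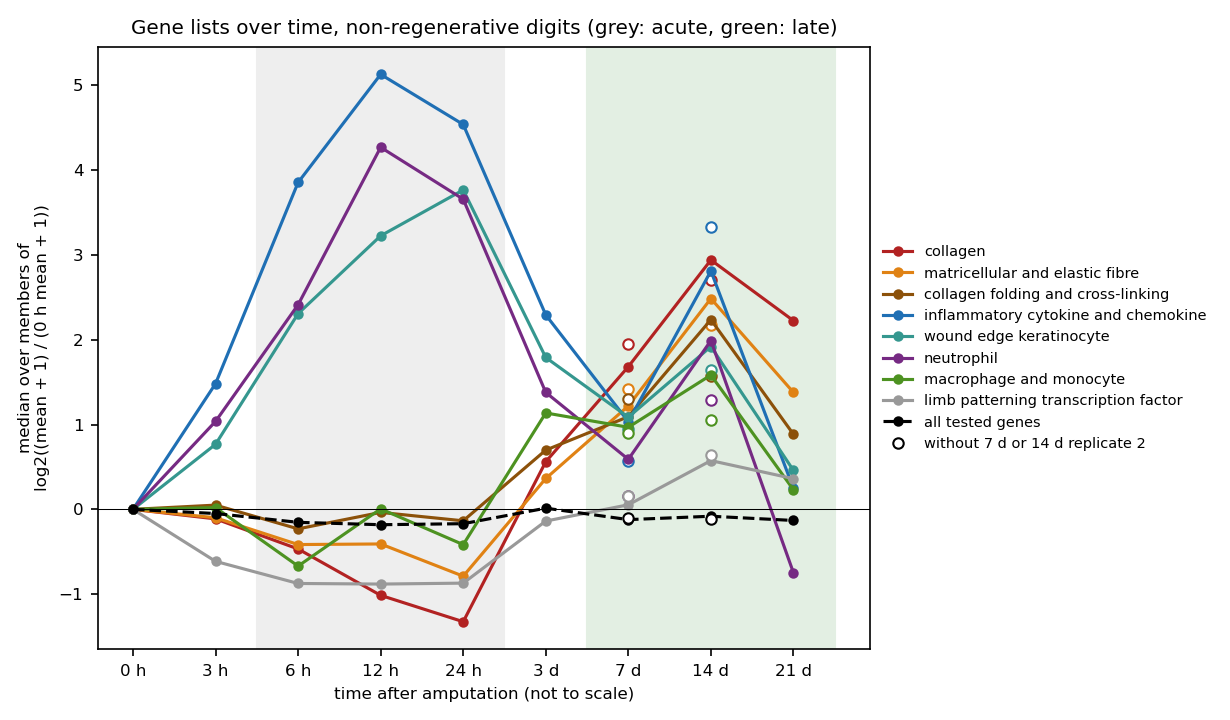
Lines give, for 8 gene lists and for all tested genes, the median over members of the log2 ratio of the time point mean plus 1 to the 0-hour mean plus 1 (vertical axis) at each time after amputation (horizontal axis), and open circles give the same without 7 days replicate 2 and 14 days replicate 2. The cytokine list reaches 5.13 at 12 hours, and the collagen list goes from -1.32 at 24 hours to 2.94 at 14 days.

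The phases were also sampled in intermediate digits, with 3 digits at 24 hours and 6 digits at 14 and 21 days. Their labels give 41% to 54% removal of P3. The lowest NR label, 60%, lies inside the range that the study's methods give for intermediate digits. In the intermediate digits, 493 of 13718 genes were higher (3.59%) and 232 lower (1.69%) in the late phase by the same edgeR test. Called in both kinds of digit were 288 higher genes, 36.8% of the NR calls and 60.9% of the intermediate calls tested in both, and 89 lower genes, 25.1% and 38.4%. Of the NR calls, 88.2% of the higher and 94.6% of the lower genes had the same sign in intermediate digits, beside 60.2% of all genes tested in both. In the intermediate digits 17 of 20 collagens rose and 7 of 19 cytokine genes fell. Col1a1 (log2 fold change 4.24, edgeR adjusted p = 0.000584), Cthrc1 (log2 fold change 5.09, edgeR adjusted p = 0.0014) and Il6 (log2 fold change -4.86, edgeR adjusted p = 0.0016) passed there too, and Fosl1 did not (log2 fold change -0.97, edgeR adjusted p = 0.191). Of 14 osteoblast and osteocyte genes, 12 rose in the intermediate digits. In the NR digits, whose phases also hold 6 and 12 hours and 7 days, 3 rose, and 6 did without the pair of digits that stood apart. These counts are from unlike time points and are no test of a difference.

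The 3 intermediate digits at 24 hours differed among themselves. The label dates run the other way than in the NR digits, with the earlier dates on 1 of 3 acute and 5 of 6 late digits, and that acute digit is replicate 1. Krt6a was at 154480 in replicate 1 and 17746 and 32306 in the others, and Plet1 was at 2093 in replicate 1 and 342 and 413 in the others. Fosl1 was at 195 in replicate 1 and 51.3 and 72.6 in the others. Without replicate 1 at 24 hours 355 genes were higher and 147 lower in the late intermediate digits, 15 of 20 collagens and 10 of 14 osteoblast genes rose, and 3 of 19 cytokine genes fell. Col1a1, Cthrc1 and Il6 still passed. Krt6a (log2 fold change -0.80, edgeR adjusted p = 0.136), Plet1 (log2 fold change -0.94, edgeR adjusted p = 0.148) and Ifi202b (log2 fold change -0.18, edgeR adjusted p = 0.641), whose intermediate values had passed the adjusted threshold with all 9 digits, did not, and Fosl1 was nearer to 0 (log2 fold change -0.18, edgeR adjusted p = 0.852). Over all 9 intermediate digits 492 genes were called with the date period as a term, in place of 725.

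The difference between the 2 kinds of digit was tested at the shared time points, 24 hours against 14 and 21 days. By edgeR's interaction term 0 of 14509 genes passed the adjusted threshold, and 923 had an unadjusted p below 0.05. Without 14 days replicate 2 of the NR digits 0 of 14542 passed, and 1902 had an unadjusted p below 0.05. Without replicate 1 of the intermediate digits at 24 hours, 1 of 14976 genes passed and 1318 had an unadjusted p below 0.05. The gene was Krt15, a keratin of basal cells, whose late against acute log2 fold change was lower in intermediate than in NR digits by a difference of -5.64 (edgeR adjusted p = 0.0412). It was at 81.3, 82.9 and 73.3 in the NR digits at 24 hours and at 264, 4780 and 1090 in the intermediate ones, of which the first was left out. The NR values above also include 6 and 12 hours and 7 days, so for single genes the 2 kinds of digit stand side by side only.

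**Figure D4:**
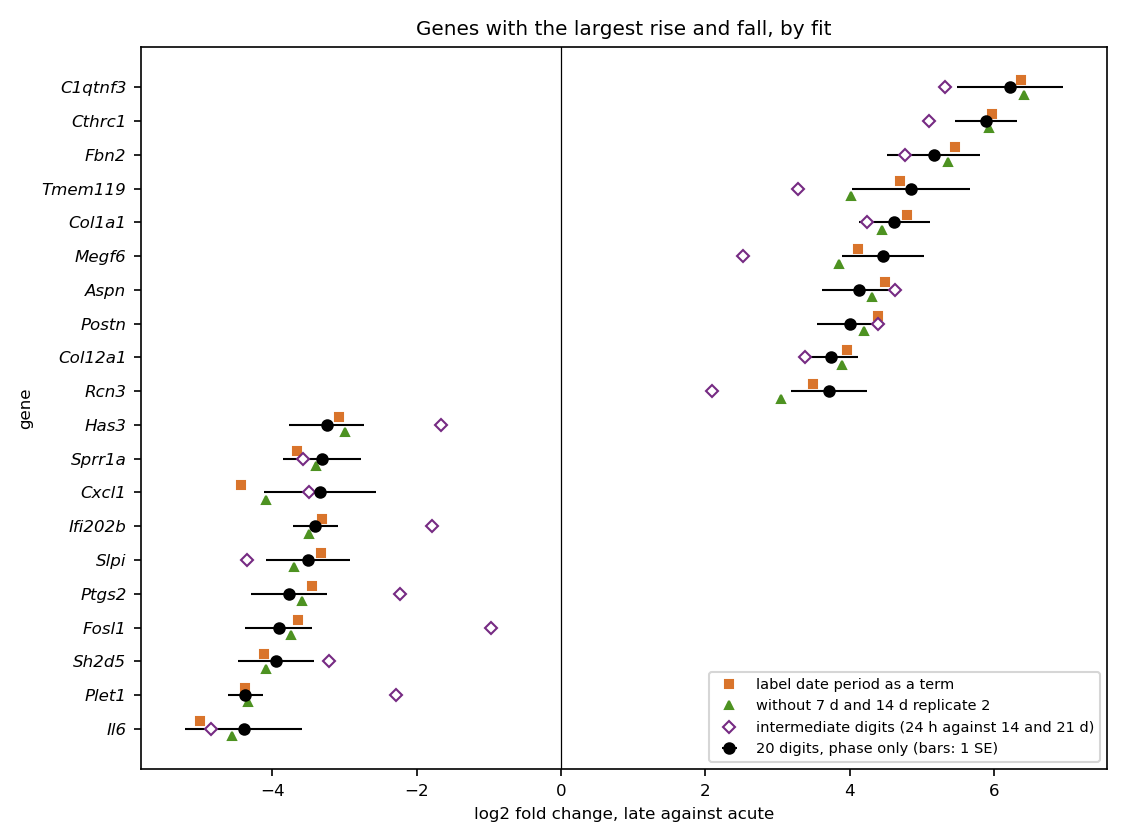
Points give the log2 fold change of late against acute phase (horizontal axis) of the 10 largest rises and 10 largest falls without overlap (vertical axis) in the 20 NR digits, with bars of 1 SE, beside the values with the label date period as a term, without 7 days replicate 2 and 14 days replicate 2, and in intermediate digits. All 20 genes keep their side of 0 in each of these fits, and Fosl1 moves most in intermediate digits, from -3.91 to -0.97. The genes were chosen for no overlap in the same NR digits, so their side of 0 in the fits of NR digits was largely fixed by that choice.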

How the data were processed

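The authors mapped 65-base single-end reads of polyadenylated RNA to mouse Ensembl v75 genes (GRCm38) with Bowtie 0.12.8 and deposited expected counts per gene from RSEM 1.2.3, not normalized between digits. Deposited TPM tables and macrophage cultures were not used. Values of a few genes are not reported here, though list counts include them. Spreadsheet dates in the gene column were restored to 26 gene names. Whether counting used strand is not given in the sources used here.

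Expected counts were rounded to whole numbers, scaled by TMM and tested with edgeR 4.0.16 (quasi-likelihood test, filterByExpr) in R 4.3.3 on the 9 acute and 11 late digits. EBSeq, which the study used, was replaced by edgeR, and the call (adjusted p below 0.05, more than 2-fold) keeps the study's limits. A normalized count is the count divided by the effective library size and multiplied by its mean over the 20 digits. SE is the log2 fold change divided by the root of its F. Depth lay between 3206590 and 13011782 counts per digit, so that 3 counts are 0.231 to 0.936 CPM. No pair of the 25 replicate pairs was within counting noise (chi-square per degree of freedom 13.38 to 411.4). The fit was tested on simulated data for the late against acute comparison over 12708 genes. By adjusted p alone it recovered 17.9% of 95 genes changed 2-fold and 76.6% of 94 changed 4-fold. With the fold threshold too, 13 and 72 of these were called, and so were 4 unchanged genes.

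Named were the 10 largest rises and 10 largest falls with no overlap, a mean of at least 100 and no placeholder name, the 3 smallest adjusted p in each direction, the 3 most abundant tested members of each of 28 lists and the called members of lists with 5 or fewer, up to 3 genes in each direction within phases, and Bmp2. Members and lists were chosen with earlier results of these data known. Alternatives were limma 3.58.1, DESeq2 1.42.0, other filters, covariates and subsets. Coordinates are those of GENCODE on GRCm38, and promoters those of RefSeq on GRCm38.p6.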

Additional observations from a re-analysis of the deposited data

Results flagged for a closer look

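Normalized counts of 1 digit that lay far from the others of its group are given here, over the 9 acute digits and the 5 digits at 7 days (Dixon's test of the gap to the nearest digit). Of 260 examinations of 130 genes 31 met the criterion, and chance gives about 1 in 20. Among the 9 acute digits, 6 hours replicate 1 was the highest in Col1a1 (7820, next 3060), Aspn (808, next 307), Fosl1 (1190, next 638), Pth1r (87.5, next 43.2), Col3a1 (11200, next 7150), Col1a2 (13500, next 5870), Bmp1 (583, next 476), Sfrp2 (321, next 42.8), Gbp3 (131, next 55.6) and Bmp2 (345, next 197). Among the 9 acute digits, 12 hours replicate 1 was the highest in Sh2d5 (1180, next 829) and Rptn (20000, next 10900). Among the 9 acute digits, 6 hours replicate 3 was the highest in Birc5 (470, next 309). Among the 5 digits at 7 days, 7 days replicate 4 was the highest in Fbn2 (422, next 141), Aspn (7680, next 3040), Cma1 (36.5, next 5.92), Prg4 (13500, next 2630), Comp (2880, next 774), Cldn5 (202, next 62.8), Fn1 (22500, next 5840) and H2-Eb1 (495, next 278). Among the 5 digits at 7 days, 7 days replicate 2 was the highest in Cxcl1 (1600, next 139), Clec4d (681, next 227), Ryr1 (103, next 27.6), Tnni2 (127, next 22.7), Dsg3 (3580, next 1610) and Il1b (313, next 90.0). Among the 5 digits at 7 days, 7 days replicate 2 was the lowest in Acp5 (3.09, next 222) and Twist1 (0, next 105). Among the 5 digits at 7 days, 7 days replicate 1 was the highest in Krt81 (2590, next 89.8). Among the 5 digits at 7 days, 7 days replicate 4 was the lowest in Ldha (3100, next 3800).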

How the results depend on the processing

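With 783 higher and 367 lower genes as the base, the higher count was 1213 with DESeq2's Wald test, 438 with limma-voom, 422 with the date period as a term, 0 with later dates only, 123 with digits labelled above 67%, 402, 260 and 293 without 6, 12 or 24 hours, 1539 without 7 days and 1177 with left paws only. The lower count was 644 with no fold threshold, 201 with the date period, 701 with earlier and 1 with later dates only, 70 above 67%, 215 without 12 hours and 568 without 7 days. limma-voom gave 448 lower genes, with a median over all genes of -0.12, while DESeq2's size factors in edgeR gave 905 higher and 317 lower with a median of 0.25. Of alternatives added after seeing the data, leaving out 7 days replicate 2 and 14 days replicate 2 gave 557 lower genes and, with the date period, 1385 calls in place of 623. Later dates alone without this pair gave 74 higher and 82 lower genes. With no digit of these times left out, 24 hours against 14 and 21 days gave 111 and 55. The test of the difference from intermediate digits, with and without their 24 hours replicate 1, was added then too. Leaving out 1 digit at a time gave 580 to 1093 higher genes, 296 to 512 lower genes and 502 to 1050 intermediate calls, of 725 with all. The 21 against 7 days comparison called 1 gene, 0 with the 2 time points only, 2 with the date period, 9 without the pair and 0 to 26 without 1 digit, with 26 when 7 days replicate 1 was left out. The 24 against 6 hours comparison called 1 gene, 91 with the 2 time points only, 42 without the pair and 0 to 1 without 1 digit. Of the values of named genes under alternatives 5246 stayed on their side of the threshold, 561 fell below it and 64 rose past it. Another 4 turned direction in a gene that at least 1 of the fits compared had called. They were those of Slc2a3 (0.019 with later dates only, 0.056 without the pair too) and Rsad2 (1.79 and 1.78). Turns of direction in genes that neither fit called are counted among the 5246, such as Asprv1, at 0.745 and, without the pair, -0.072. The causes were not tested. No paired analysis was possible because the labels number no replicates and no mark and date occurs on both an acute and a late digit of the 20. Phase and label date overlap only in part, with 2 acute digits among the later dates, which limits what the date term can separate.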
